A study of Papio anubis with 40 samples.

Results

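Plasma microRNAs were compared in 8 olive baboons (Papio anubis) between month 6 after endometriosis was induced and month 0, the bleed taken before. The comparison takes the 8 libraries labelled month 6 and the 8 labelled month 0, 16 of the 40 libraries of the series, and every microRNA row of the count table. The other 24 libraries come from months 3, 9 and 15 of the same animals. Month 6 plasma came from animals that had menstrual tissue placed in the peritoneal cavity 6 months earlier, and month 0 plasma from the same animals with no inoculation yet. Every library, at both months, carries the treatment label "No treatment", and each sample was 0.5 mL of plasma by its label, although the text on the series speaks of serum. Ages and lesion findings of the single animals were not used here. The study's samples hold no uninoculated animal, so months since inoculation, the animal's age, and the time a sample was stored move together and cannot be told apart. The question the comparison addresses is whether circulating microRNAs at month 6, an intermediate time point, differ from the level each animal had before inoculation.

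Endometriosis is the growth of endometrium-like tissue outside the uterus, and in baboons it can be set up by seeding the animal's own menstrual tissue into the abdomen. MicroRNAs are short RNAs that guide the silencing complex to messenger RNAs, and those found in plasma are released mainly by blood cells, platelets, vessel walls and the liver, inside vesicles or bound to proteins. A plasma level therefore adds up many sources, and fewer cells of a type cannot be told apart from less RNA released per cell.

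No microRNA passed the test at month 6. Of 318 rows tested, 0 had an adjusted p under 0.05 in the paired quasi-likelihood test of edgeR with Benjamini-Hochberg adjustment, which is 0% of the rows, and the smallest adjusted p was 0.528. DESeq2 called 1 row, miR-24-3p, and limma-voom 0. At an unadjusted p under 0.05 there were 11 rows, 7 of them higher at month 6 (2.2% of the rows) and 4 lower (1.26%). Over all rows the log2 change had a median of 0.10, with 200 rows above 0 and 118 below. That median follows the scaling, being 0.03 with the size factors of DESeq2 and -0.04 with library totals alone. Without the month 6 library of PA8912 it was 0.004, and list medians given without that library are to be read beside 0.004. These are shifts of the whole profile against which single changes below have to be read. The unadjusted calls moved with the scaling. They were 3 higher and 6 lower with the size factors of DESeq2 and 2 higher and 6 lower with upper-quartile factors. Library totals gave 3 higher and 5 lower. The unadjusted calls also depended on single animals, with 4 rows in all when PA8001 was left out, 5 without PA8912 and 17 without PA8915.

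Depth was uneven. Total counts ran from 696873 to 5824111 over the 16 libraries, with a median of 1522600, and a library held between 266 and 492 rows with a count. The month 6 library of baboon PA8912 stood apart: it was the deepest, held the most rows, and its profile correlated at -0.36 with the month 0 library of the same animal once the month means were taken off, against 0.08 to 0.38 in the other 7 animals. It correlated at 0.41 with the month 9 and 0.57 with the month 15 library of PA8912. Whether it carries the right label cannot be settled from the files, and every paired value that includes PA8912 rests on that label. Log2 changes and list medians below that leaving out this library moved by over 1.5 times are given without it as well. None of 4 library measures passed a test between the months. The log2 total count averaged 20.7 ± 0.91 at month 6 and 20.3 ± 0.55 at month 0 (SD, n = 8 each; exact sign-flip permutation test, two-sided, p = 0.336, adjusted 0.672). Rows with a count averaged 361 ± 61.4 at month 6 and 333 ± 33.9 at month 0, with more at month 6 in 6 of 8 animals (exact permutation p = 0.211). The mean paired difference was 0.40 for the log2 total count and 28 for rows with a count. With each animal left out in turn these ran from 0.18 to 0.54 and from 13.1 to 39.9.

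Markers of red cell leakage and of the liver were among those measures. The haemolysis index, log2 CPM of miR-451a of red cells minus that of miR-23a-3p/23b-3p (a joined row), averaged -0.14 ± 0.43 at month 6 and 0.01 ± 1.06 at month 0 (exact permutation p = 0.672, n = 8 pairs). CPM here and below stands for counts brought to a common library size with TMM factors. The log2 CPM of miR-122-5p, the dominant microRNA of hepatocytes, averaged 15.2 ± 2.52 at month 6 and 15.5 ± 2.27 at month 0 (exact permutation p = 0.586). Its level ranged from 2229 to 673511 CPM at month 6 and from 7957 to 694211 CPM at month 0, and PA8001 gave the highest value at both months. The paired difference of -0.28 ± 1.07 was small beside the spread between animals, and it was 0.04 without PA8912.

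miR-210-3p, the microRNA that the hypoxia-inducible factors switch on when oxygen is low, was higher at month 6 in every animal. At month 6 it stood at 176 CPM in PA8001, 158 in PA8003, 296 in PA8835, 254 in PA8872, 230.5 in PA8873, 374 in PA8912, 332 in PA8914 and 206 in PA8915. At month 0 it stood at 91.3 CPM in PA8001, 154 in PA8003, 94.2 in PA8835, 148 in PA8872, 169 in PA8873, 176 in PA8912, 178 in PA8914 and 194 in PA8915. The difference was as little as 0.03 on the log2 scale in PA8003 and as much as 1.64 in PA8835, and the groups overlapped. The mean was 253 ± 76.1 CPM at month 6 and 151 ± 38.5 CPM at month 0 (SD, n = 8 each), a log2 change of 0.74 (SE 0.24, 95% interval 0.26 to 1.22, adjusted p = 0.568). Without the month 6 library of PA8912 the log2 change was 0.56. The direction held in 8 of 8 animals with TMM factors and the size factors of DESeq2, in 7 with upper-quartile factors and in 6 with library totals.

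miR-4676-5p, a microRNA with no function stated here, was also higher at month 6 in all 8 animals. Month 6 levels were 19.1 CPM in PA8001, 32.4 in PA8003, 21.2 in PA8835, 16.6 in PA8872, 45.9 in PA8873, 32.7 in PA8912, 42.2 in PA8914 and 27.4 in PA8915. Month 0 levels were 12.5 CPM in PA8001, 18.0 in PA8003, 12.7 in PA8835, 13.5 in PA8872, 20.3 in PA8873, 11.7 in PA8912, 24.0 in PA8914 and 14.6 in PA8915. PA8873 and PA8914 were highest at month 6, and the lowest month 6 values lay within the month 0 range. The mean of 29.7 ± 10.7 CPM at month 6 and 15.9 ± 4.43 CPM at month 0 gave a log2 change of 0.89 (SE 0.34, 95% interval 0.20 to 1.57, adjusted p = 0.990). The row rests on few reads, between 16 and 262 counts per library at month 6 and between 10 and 42 at month 0. The direction held in 8 of 8 animals with TMM factors, the size factors of DESeq2 and library totals, and in 7 with upper-quartile factors. miR-210-3p and miR-4676-5p are the 2 of 318 rows higher in every animal with TMM factors, 0.629% of those tested.

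Of the 318 rows, 1 was lower in every animal, 0.314% of those tested. This was miR-100-5p, made from a cluster with miR-125b-1 and abundant in endothelial and stromal cells, where it is known to restrain the growth kinase mTOR. At month 6 it stood at 288 CPM in PA8001, 174 in PA8003, 129.6 in PA8835, 34.9 in PA8872, 68.2 in PA8873, 39.0 in PA8912, 48.8 in PA8914 and 105 in PA8915. At month 0 it stood at 411 CPM in PA8001, 221.5 in PA8003, 149 in PA8835, 49.4 in PA8872, 104 in PA8873, 191 in PA8912, 77.8 in PA8914 and 117 in PA8915. The groups overlapped widely because animals differ in their own level, PA8001 being highest at both months. The means of 111 ± 86.5 CPM at month 6 and 165 ± 115 CPM at month 0 gave a log2 change of -0.61 (SE 0.30, 95% interval -1.21 to -0.0012, adjusted p = 0.990). PA8912 was far below its own month 0 value, by -2.26 on the log2 scale, and the other 7 animals lay between -0.66 and -0.15. Without the PA8912 month 6 library the log2 change was -0.53. With all animals kept, the direction was lower in 8 of 8 under all 4 scalings. With PA8912 left out and TMM factors computed anew, miR-100-5p was no longer lower in every remaining animal.

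**Figure D1:**
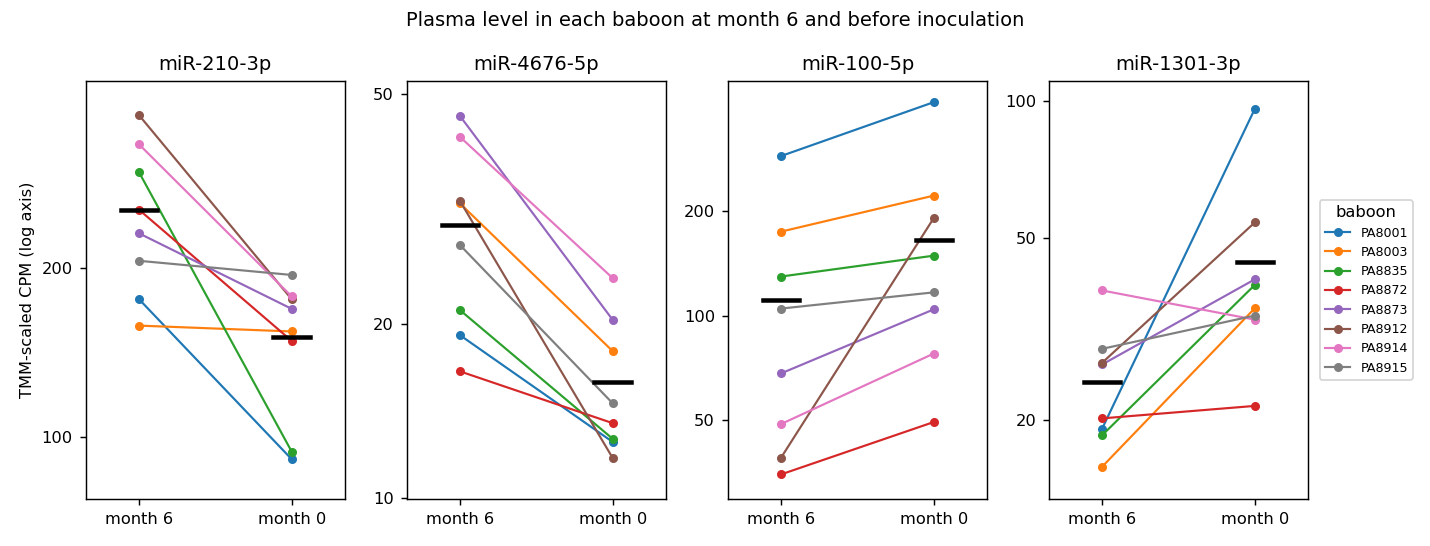
Level of miR-210-3p, miR-4676-5p, miR-100-5p and miR-1301-3p in TMM-scaled CPM on a log axis, at month 6 (left) and month 0 (right) of each panel. Each coloured line is 1 of the 8 baboons and black bars are means; with this scaling miR-210-3p and miR-4676-5p are higher at month 6 in 8 of 8 animals, miR-100-5p is lower in 8 of 8, and miR-1301-3p is lower in 7 of 8.

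The smallest p of all rows belonged to miR-1301-3p, a less abundant microRNA. At month 6 it had 19.1 CPM in PA8001, 15.8 in PA8003, 18.5 in PA8835, 20.2 in PA8872, 26.5 in PA8873, 26.7 in PA8912, 38.5 in PA8914 and 28.6 in PA8915. At month 0 it had 96.3 CPM in PA8001, 35.2 in PA8003, 39.6 in PA8835, 21.5 in PA8872, 40.7 in PA8873, 54.2 in PA8912, 33.2 in PA8914 and 33.9 in PA8915. It was lower at month 6 in 7 of 8 animals, the exception being PA8914, and in 8 of 8 with upper-quartile factors, and the groups overlapped. The means of 24.2 ± 7.36 CPM at month 6 and 44.3 ± 22.9 CPM at month 0 gave a log2 change of -0.80 (SE 0.23, 95% interval -1.27 to -0.33, adjusted p = 0.528). The month 0 library of PA8001 was the highest of the 16, and that animal's own difference of -2.27 was the largest.

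Another 3 rows, of moderate or high level, reached an unadjusted p under 0.05 with smaller changes. The joined row miR-106a-5p/17-5p, whose members come from the miR-17 family of clusters that drive cell proliferation, had 139 CPM in PA8001, 165 in PA8003, 268 in PA8835, 189 in PA8872, 477 in PA8873, 163 in PA8912, 402 in PA8914 and 135 in PA8915 at month 6. At month 0 it had 91.3 CPM in PA8001, 171 in PA8003, 112 in PA8835, 204 in PA8872, 121 in PA8873, 103 in PA8912, 312 in PA8914 and 197 in PA8915. It was higher at month 6 in 5 of 8 animals and the groups overlapped, with a log2 change of 0.55 (SE 0.25, adjusted p = 0.990). PA8873 had the largest difference, 1.97, and without that animal the log2 change was 0.30. The row cannot be divided between its 2 names.

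miR-425-3p, an arm of the miR-191 and miR-425 hairpin pair common in blood cells, also had an unadjusted p under that threshold. Month 6 levels were 1062 CPM in PA8001, 1216 in PA8003, 1071 in PA8835, 955 in PA8872, 998 in PA8873, 1598 in PA8912, 1012 in PA8914 and 1019.9 in PA8915. Month 0 levels were 748 CPM in PA8001, 1077 in PA8003, 584 in PA8835, 954 in PA8872, 701 in PA8873, 817 in PA8912, 1114 in PA8914 and 1171 in PA8915. Its log2 change was 0.34 (SE 0.16, adjusted p = 0.990), higher in 6 of 8 animals, and PA8912 was the highest of the month 6 group. Without the PA8912 month 6 library the log2 change was 0.17.

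miR-503-5p, which represses cyclins and lies in a cluster with miR-424, was the third of these rows. Its month 6 values were 262 CPM in PA8001, 483 in PA8003, 333 in PA8835, 287 in PA8872, 316 in PA8873, 338 in PA8912, 389 in PA8914 and 240.1 in PA8915. Its month 0 values were 256.3 CPM in PA8001, 285 in PA8003, 354 in PA8835, 262 in PA8872, 187 in PA8873, 153 in PA8912, 381 in PA8914 and 253 in PA8915. Its difference was 0.76 in PA8003, 0.75 in PA8873 and 1.14 in PA8912 on the log2 scale and lay between -0.09 and 0.13 in the other 5 animals. The log2 change was 0.35 (SE 0.17, adjusted p = 0.990), and 0.20 without the PA8912 month 6 library.

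The 4 further rows under that unadjusted threshold rested on 1 animal or on very few counts. miR-203a-3p, a microRNA of skin and other stratified epithelia, had 4.12 to 15.8 CPM at month 6 (median 6.91) and 5.09 to 411 CPM at month 0 (median 10.6). The 411 CPM came from PA8001 alone, the next highest month 0 value being 21.5 CPM in PA8912, and the log2 change was -1.82 (SE 0.87, adjusted p = 0.990) with 6 of 8 animals lower, or -0.65 without PA8001. miR-132-3p, induced by CREB signalling in neurons and immune cells, had 0 counts in 5 month 6 libraries, 2 in PA8873, 41 in PA8912 and 4 in PA8915, against 0 counts in 1 month 0 library, that of PA8835, and 4 to 12 in the other 7. It was lower at month 6 in 7 animals and at 0 at both months in PA8835.

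miR-4286 went the other way, with 6 to 261 counts in the month 6 libraries and 0 counts in 5 of the 8 month 0 libraries. The 3 animals with counts at month 0 were PA8872 with 13, PA8914 with 14 and PA8915 with 34, and PA8914 was lower at month 6. miR-1249-3p had 6 to 43 counts in 6 month 6 libraries and 2 to 16 in 3 month 0 libraries. A library at 0 may still hold up to 3 counts' worth of the row, or 0.374 to 3.97 CPM at month 6 and 1.41 to 3.81 CPM at month 0, so fitted changes of these rows (2.19 for miR-4286 and 2.57 for miR-1249-3p on the log2 scale) depend on how zeros are handled.

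**Figure D2:**
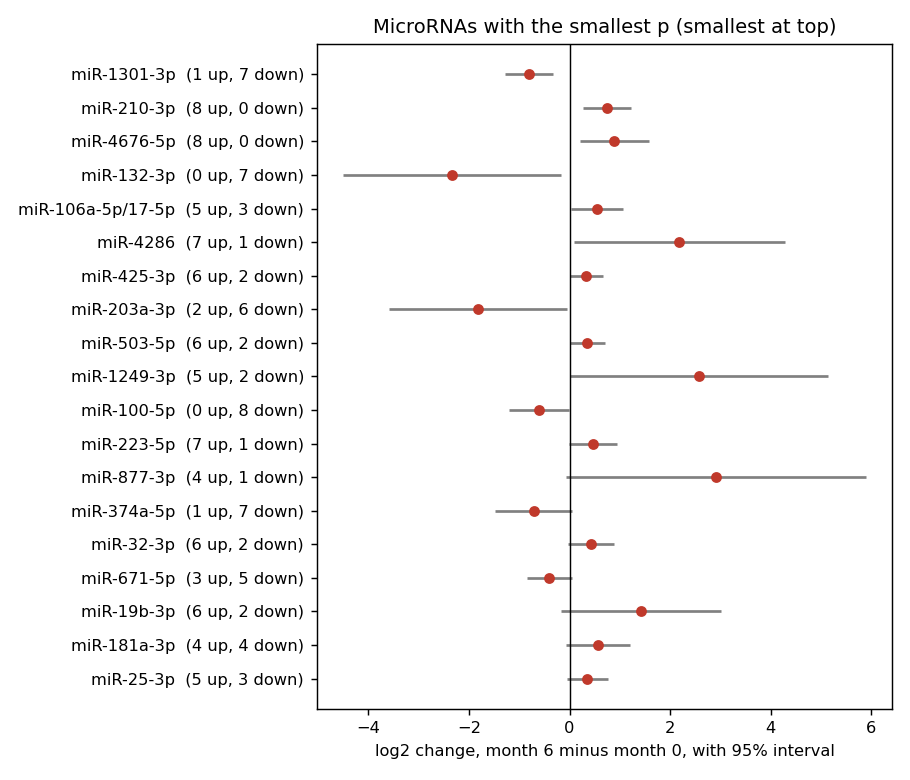
Log2 change (month 6 minus month 0) with its 95% interval from the edgeR fit for 19 of the 20 microRNAs with the smallest p, ordered with the smallest at the top; miR-24-3p is left out for its width. Labels give how many of the 8 animals were higher or lower; the intervals of the first 11 rows exclude 0 before adjustment and none passes after it.

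The next rows by p had intervals that reach 0. miR-223-5p, the minor arm of the granulocyte and platelet microRNA miR-223, was higher in 7 of 8 animals, at 576 to 1550 CPM (median 844) at month 6 and 434 to 1122 CPM (median 639) at month 0, with a log2 change of 0.47 (SE 0.23), or 0.31 without PA8912. miR-374a-5p was lower in 7 of 8, at 7.503 to 17.1 CPM at month 6 and 11.3 to 22.4 CPM at month 0, with a log2 change of -0.72 (SE 0.37), and PA8912 was the animal that was higher. miR-671-5p was lower in 5 of 8, with a log2 change of -0.40 (SE 0.22). miR-32-3p (log2 change 0.42) and miR-19b-3p (1.42) were higher in 6 of 8 animals, miR-25-3p (0.36) in 5, and miR-181a-3p (0.56) and miR-877-3p (2.91) in 4. The log2 change was 0.24 for miR-32-3p and 0.21 for miR-25-3p without the PA8912 month 6 library. Leaving out a whole animal gave 0.90 for miR-19b-3p without PA8003, 0.89 for it without PA8912, 0.29 for miR-181a-3p without PA8001 and 5.83 for miR-877-3p without PA8872.

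miR-24-3p was listed at 0 in some libraries and among the abundant rows in others. At month 6 it had 3245 counts in PA8003, 4765 in PA8873, 43201 in PA8912 and 6527 in PA8915, and 0 in the other 4 libraries. At month 0 it had 4462 counts in PA8003 and 0 in the other 7. Libraries with the row held 2562 to 5388 CPM at month 6 and 3339 CPM at month 0, so no library lay between 0 and 2562 CPM. The cause of the zeros was not tested, and a 0 in this row cannot be read as absence of the microRNA from plasma. In the fit with month and baboon the log2 change was 9.11 (SE 4.94, adjusted p = 0.990), with 18.7 when PA8003 was left out and 4.51 without PA8915. DESeq2 called it (log2 16.4, adjusted p = 0.0123), as did edgeR with no filter on low counts (log2 9.23, adjusted p = 7.02e-07), and neither value is a bound on the change. Rows of the same cluster that share its primary transcript were counted in every library: miR-23a-3p/23b-3p had 566 to 7063 CPM at month 6 and 337 to 3381 CPM at month 0, and miR-27a-3p/27b-3p had 258 to 3465 CPM at month 6 and 386 to 959 CPM at month 0.

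**Figure D3:**
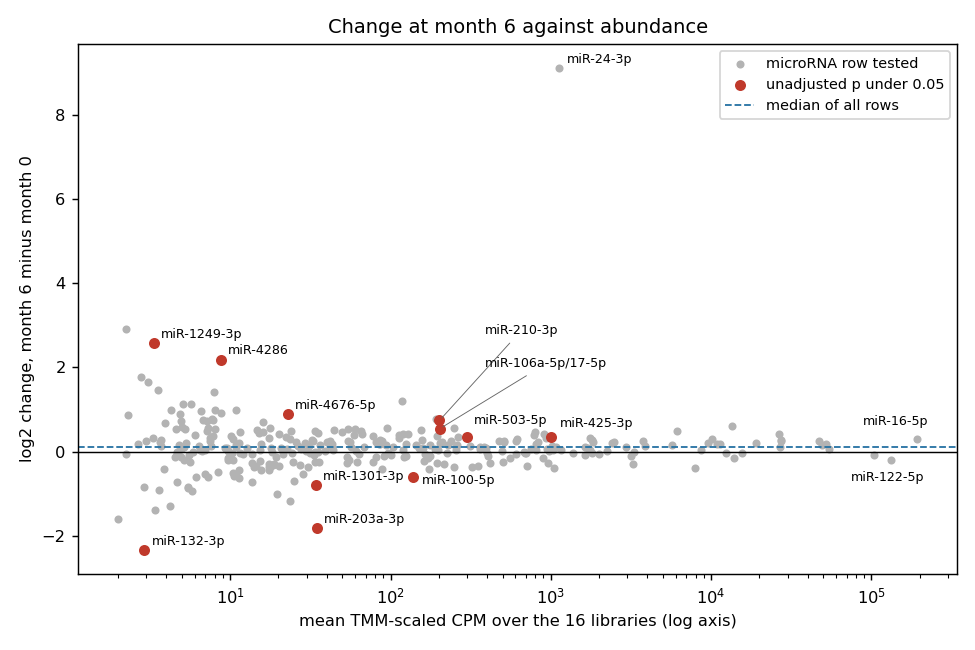
Log2 change (month 6 minus month 0) of each of the 318 rows against its mean TMM-scaled CPM over the 16 libraries on a log axis. Red points are the 11 rows with an unadjusted p under 0.05 and the dashed line is the median of all rows, 0.10; the scatter narrows with abundance and miR-24-3p stands alone at 9.11.

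The 10 most abundant microRNAs had log2 changes between -0.19 and 0.29. miR-16-5p, a main microRNA of red cells, averaged 217583 ± 132322 CPM at month 6 and 170057 ± 68175 CPM at month 0 and was higher in 7 of 8 animals, with a log2 change of 0.29 (SE 0.26). PA8873 carried most of that, at 469081 CPM at month 6 and 169111 CPM at month 0, and without that animal the log2 change was 0.06. miR-486-5p, another red cell microRNA, averaged 102935 ± 61046 CPM at month 6 and 103310 ± 46867 CPM at month 0, with a log2 change of -0.08 (SE 0.31), which was -0.36 without PA8873. let-7b-5p had a log2 change of 0.07 (SE 0.20), which turned to -0.004 with the size factors of DESeq2. miR-126-3p of endothelium and platelets had a log2 change of 0.18 (SE 0.21) and its other arm miR-126-5p of 0.11 (SE 0.24). miR-93-5p, let-7a-5p/7c-5p, let-7g-5p and let-7f-5p had log2 changes of 0.28, 0.16, 0.25 and 0.26. The last 3 were 0.05, 0.11 and 0.06, miR-126-5p was 0.06 and miR-486-5p was -0.02 without the PA8912 month 6 library. Without PA8835 the 2 arms of miR-126 lay below 0, at -0.02 (3p) and -0.14 (5p).

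The data bound the change for common rows and leave it wide for rare ones. Of the 318 rows, 144 (45.3%) had a 95% interval that lay wholly within 2-fold of no change, and 44 within 1.5-fold. Among the 50 rows over 1000 CPM, 41 (82%) lay within 2-fold, with a median SE of 0.23 on the log2 scale. The share was 60 of 80 rows at 100 to 1000 CPM, 42 of 113 at 10 to 100 CPM and 1 of 75 under 10 CPM. For most rows under 100 CPM a 2-fold change in one direction or the other therefore lay inside the interval.

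Blood cell lists of microRNAs held 0 calls. The erythrocyte list had 9 tested members, 7 above 0 and 2 below, with a median log2 change of 0.09 beside 0.10 for all rows, and that median was at or below 0.02 with the other 3 scalings. Its defining members miR-451a, miR-486-5p and miR-144-3p had log2 changes of -0.02, -0.08 and 0.08, or -0.34, -0.02 and -0.03 without the PA8912 month 6 library. The list's median was 0.29 without PA8914 and -0.05 without PA8873. The platelet list had 10 of 12 above 0 (median 0.16), led by miR-223-3p at 0.49 (SE 0.31) and miR-191-5p at 0.43 (SE 0.28) apart from miR-24-3p. Without the PA8912 month 6 library its median was 0.04, with miR-223-3p at 0.12 and miR-191-5p at 0.10.

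The myeloid list, microRNAs of granulocytes and monocytes, had 9 of 10 members above 0 and a median of 0.29. miR-223-3p had 3651 to 17687 CPM at month 6 (median 6072) and 2372 to 6225 CPM at month 0 (median 5096), and the highest month 6 and the lowest month 0 value both came from PA8912. The median over the list's members was 1.54 in PA8912 and between -0.45 and 0.43 in the other 7 animals. Without the PA8912 month 6 library the list's median was 0.06, with 6 of 10 above 0.

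The lymphocyte list had 5 of 10 members above 0 and a median of 0.01, which lay between -0.10 and -0.06 with the other 3 scalings and at -0.16 without the PA8912 month 6 library. Within it, miR-342-3p of B and T cells was lower in 7 of 8 animals, with a log2 change of -0.34 (SE 0.24) and 301 to 994 CPM at month 6 (median 530) against 457 to 1266 CPM at month 0 (median 705). It was lower in 8 of 8 under each of the other 3 scalings. miR-181a-5p, a regulator of T cell receptor sensitivity, had a log2 change of -0.28 (SE 0.17) and miR-181b-5p of -0.29 (SE 0.20), each lower in 6 of 8 animals. miR-150-5p, the main microRNA of mature lymphocytes, had a log2 change of -0.04 (SE 0.40), or -0.27 without the PA8912 month 6 library.

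Medians of the solid tissue lists differed widely between animals. The liver list had 3 of 8 members above 0 (median -0.16): miR-122-5p had a log2 change of -0.19 (SE 0.55), and miR-192-5p/215-5p and miR-194-5p of 0.56 (SE 0.46) and 0.53 (SE 0.43). miR-483-5p was below 0, at -0.27 (SE 0.39). Without the PA8912 month 6 library the liver median was -0.04, miR-122-5p had -0.08 and miR-483-5p -0.13. The muscle list had 3 of 5 above 0 (median 0.31), and neither its size nor its sign held under the alternatives. That median was 0.53 without the PA8912 month 6 library, 0.70 without PA8912 and 0.59 without PA8873, but -0.21 without PA8915 and -0.10, with 1 of 5 above 0, by limma-voom. It was 0.01 without pairing by animal. All 5 members were higher at month 6 in PA8001, PA8003, PA8835 and PA8915, against 1 of 5 in PA8873 and 0 of 5 in PA8912. miR-1-3p, the main microRNA of striated muscle, had 35326 CPM at month 6 and 6184 CPM at month 0 in PA8915, but 1341 CPM at month 6 and 50345 CPM at month 0 in PA8912. Its log2 change over all animals was 0.62 (SE 0.65), and that of miR-133a-3p/133b, also of muscle, was 1.21 (SE 0.73). The other tested members were miR-206 at 0.31 (SE 0.61), miR-499a-5p at -0.22 (SE 0.38) and miR-208b-3p at -0.29 (SE 0.74). Without the PA8912 month 6 library miR-206 had 0.53, miR-499a-5p -0.07 and miR-208b-3p -0.07.

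The endothelial and stromal list stood furthest below 0. Of its 12 tested members 10 were below 0 and 2 above, with a median of -0.32 beside 0.10 for all rows, and 1 of the members, miR-100-5p, had an unadjusted p under 0.05. miR-143-3p of smooth muscle had 3954 to 10707 CPM at month 6 (median 6046) and 2345 to 15739 CPM at month 0 (median 9643), lower in 6 of 8 animals, with a log2 change of -0.40 (SE 0.36). miR-10b-5p had a log2 change of -0.39 (SE 0.34), miR-125b-5p of -0.36 (SE 0.31), miR-99a-5p of -0.35 (SE 0.27) and miR-10a-5p of -0.29 (SE 0.29). The animals were divided for these rows. miR-10b-5p and miR-10a-5p were lower in 4 of 8 animals, and miR-125b-5p and miR-99a-5p in 5 of 8. The members above 0 were miR-221-3p at 0.42 (SE 0.28) and miR-199b-5p at 0.02 (SE 0.42). These 2 were 0.13 and -0.08 without the PA8912 month 6 library. Without PA8915 miR-143-3p had -0.23.

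That list's median lay between -0.42 and -0.40 with the other 3 scalings and was -0.32 without the PA8912 month 6 library. It ran from -0.47 to -0.22 when each baboon was left out in turn. The number of members above 0 moved more. It was 1 of 12 with each of the other 3 scalings, but 5 of 12 by limma-voom. Without pairing by animal, without PA8872 or without PA8835 it was 4 of 12. The median over its members was below 0 in 6 animals and above in PA8001 (0.47) and PA8914 (0.04), and no member passed. Its summed level was 6781 to 19271 CPM at month 6 (median 10004) and 6662 to 21467 CPM at month 0 (median 16246). A grouping by genomic cluster was made after results were known, and its counts cover only the hairpins named. Among all 318 rows, 118 were below 0 and 200 above. All tested arms had a fitted log2 change below 0 for miR-100 with miR-125b-1 (2 of 2) and for miR-143 with miR-145 (3 of 3). Of the first 2, miR-100-5p is the row already given as lower in every animal. miR-125b-5p was higher at month 6 in 3 of 8 animals and lower in 5. The animals were divided for miR-143 with miR-145, whose median over the arms was above 0 in 3 of 8. For miR-99b with miR-125a the fitted changes of 4 of 4 arms were below 0 (-0.35 to -0.01), but the median over the arms was above 0 in 5 of 8 animals, miR-99b-5p was higher at month 6 in 5 of 8 and miR-125a-3p in 6 of 8. Of those 4 arms, 3 were below 0 without the PA8912 month 6 library and 2 without PA8873. In miR-191 with miR-425, 4 of 4 arms were above 0 (median 0.28), or 3 of 4 without the PA8912 month 6 library (median 0.13). In miR-106b with miR-25, 5 of 6 were above 0 (median 0.24), also without that library (median 0.15). The median over the arms was above 0 in 5 of 8 animals for miR-191 with miR-425 and in 4 of 8 for miR-106b with miR-25. In miR-424 with miR-503 and miR-450, 4 of 5 arms were above 0 (median 0.03), or 3 of 5 without the PA8912 month 6 library. In miR-222 with miR-221 it was 2 of 3 (median 0.03), or 1 of 3 without that library (-0.28). In miR-23 with miR-27 and miR-24 it was 3 of 3 (0.39), or 2 of 3 without that library (0.01). miR-144 with miR-451 and miR-374a with miR-545 had 1 arm on each side of 0. miR-99a with miR-125b-2 and miR-132 with miR-212 had 1 tested arm each, below 0.

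The epithelial list, which includes the miR-200 family that holds the epithelial state, had 2 of 9 members above 0 and a median of -0.10. miR-200a-3p had a log2 change of -0.37 (SE 0.61), miR-200c-3p of -0.01 (SE 0.43) and miR-141-3p of 0.02 (SE 0.47), and without the PA8912 month 6 library miR-200a-3p had -0.18 and miR-141-3p 0.18. The epithelial median was -0.43 without PA8872 and 0.09 without PA8912. The neural list had 4 of 5 above 0 (median 0.23, or 0.09 without the PA8912 month 6 library), with miR-128-3p at 0.23 (SE 0.15) and miR-9-5p at 0.55 (SE 0.40), and miR-132-3p the member below. Without that library miR-128-3p had 0.11 and miR-9-5p 0.14.

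MicroRNAs linked to endometriosis in the literature showed no common direction. Of 22 tested members 10 were above 0 and 12 below, with a median of -0.02, which stayed below 0 under the other 3 scalings (-0.12 to -0.09) and was -0.11 without the PA8912 month 6 library. Besides miR-106a-5p/17-5p, miR-342-3p, miR-125b-5p and miR-143-3p already given, miR-34c-5p of ciliated epithelium had 0 to 62.1 CPM at month 6 and 0 to 146 CPM at month 0, with a log2 change of -0.69 (SE 0.85). miR-451a had a log2 change of -0.02 (SE 0.42), let-7b-5p of 0.07, miR-199a-5p of -0.09 (SE 0.48), miR-20a-5p of 0.12 (SE 0.19) and miR-3613-5p of 0.18 (SE 0.37). With the PA8912 month 6 library left out, miR-34c-5p had -0.43, miR-451a -0.34 and miR-199a-5p -0.48.

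Inflammation-linked microRNAs had 7 of 10 members above 0 and a median of 0.17, or -0.01 without the PA8912 month 6 library. miR-146a-5p and miR-155-5p, both induced by NF-kB, had log2 changes of 0.38 (SE 0.30) and 0.05 (SE 0.25), and miR-187-3p, induced by interleukin-10, of 0.43 (SE 0.29). Without that library these 3 had 0.16, -0.15 and 0.18. The hypoxia and fibrosis list had 6 of 11 above 0 and a median of 0.02, which lay between -0.10 and -0.05 with the other 3 scalings and at -0.06 without the PA8912 month 6 library. In it miR-210-3p and miR-503-5p stood at the top, while miR-21-5p (-0.08, SE 0.18), miR-29a-3p (-0.07, SE 0.26), miR-29b-3p (0.05, SE 0.21) and miR-29c-3p (0.05, SE 0.25), which act on matrix genes, were close to 0. Without that library miR-21-5p had -0.14, miR-29b-3p -0.06 and miR-29c-3p 0.09.

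Members of let-7, which restrain growth genes, were 7 of 8 above 0 with a median of 0.18, and the miR-17 clusters 10 of 11 with a median of 0.18. The let-7 median was 0.03 with library totals alone and 0.07 without the PA8912 month 6 library, and that of the miR-17 clusters was 0.06 and 0.09 under these settings. The imprinted DLK1-DIO3 cluster had 16 of 25 members above 0, beside 200 of 318 for all rows. Its median was 0.16, but 0.03 to 0.08 with the other 3 scalings and 0.01 without the PA8912 month 6 library. Within it, miR-154-5p was higher in 7 of 8 animals (log2 change 0.43, SE 0.29), miR-369-3p in 5 (1.00, SE 0.87) and miR-127-5p in 2 (-1.38, SE 0.97). The primate C19MC cluster, active in placenta, had 0 of 15 members tested, with 11 counts in all at month 6 and 6 at month 0.

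**Figure D4:**
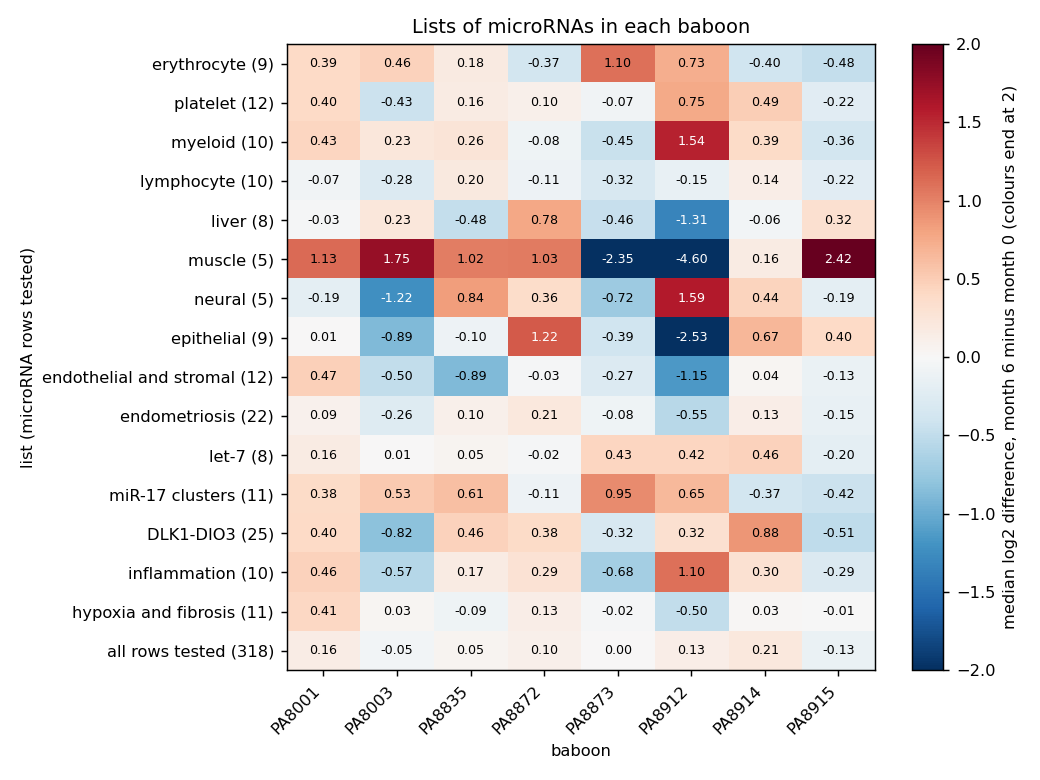
Median paired log2 difference (month 6 minus month 0) over the tested members of each list, by baboon, with the number of members in brackets and all 318 rows at the bottom; colours end at 2 in both directions. Muscle runs from -4.60 in PA8912 to 2.42 in PA8915, while the row for all microRNAs stays between -0.13 and 0.21.

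No row passed between month 6 and the other months after inoculation. The contrast of month 6 with the mean of months 3, 9 and 15, which uses no month 0 library as its reference, gave 0 calls by edgeR (0% of 318 rows) and 3 rows at an unadjusted p under 0.05. These were miR-1301-3p (log2 -0.60, SE 0.19), miR-30e-5p (-0.38, SE 0.17) and miR-122-5p (-1.02, SE 0.48), each with an adjusted p of 0.997. DESeq2 and limma-voom also made 0 calls there, and edgeR with no filter on low counts made 1, miR-122-5p (log2 -1.06, adjusted p = 0.0179). Against month 0, miR-122-5p had log2 changes of 0.78, -0.19, 1.58 and 0.13 at months 3, 6, 9 and 15. In the contrast with months 3, 9 and 15 the next by p were miR-450a-5p (0.50), miR-3614-5p (-0.86), miR-32-3p (0.33), miR-143-3p (-0.52), miR-1262 (0.50), miR-186-5p (0.23) and miR-181a-3p (0.42). In this contrast miR-32-3p had 0.20, miR-1262 0.33 and miR-186-5p 0.03 without the PA8912 month 6 library.

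Changes of the leading rows against month 0 were also read at the other months, all of which share the same 8 month 0 libraries. miR-210-3p had log2 changes of 0.57, 0.74, 0.78 and 1.34 at months 3, 6, 9 and 15. miR-4676-5p had 0.84, 0.89, 0.37 and 1.17, miR-100-5p had -0.21, -0.61, 0.37 and -1.16, and miR-1301-3p had -0.15, -0.80, -0.37 and -0.08. Of these 16 values, only those of miR-210-3p (adjusted p = 0.000958), miR-4676-5p (0.0448) and miR-100-5p (0.0343) at month 15 passed by edgeR. miR-1301-3p was lowest at month 6, and miR-100-5p was below month 0 at months 3, 6 and 15 and above it at month 9.

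**Figure D5:**
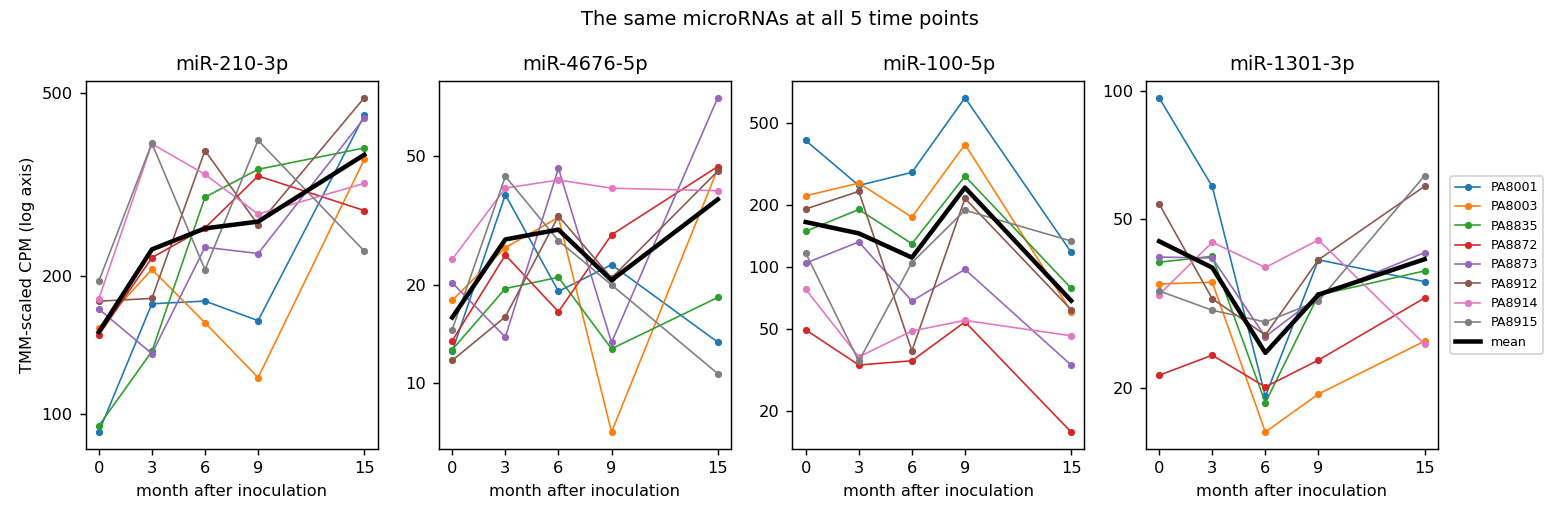
TMM-scaled CPM on a log axis at months 0, 3, 6, 9 and 15 for the same 4 microRNAs; thin coloured lines are the 8 baboons and the thick black line their mean. The mean of miR-210-3p is lowest at month 0 and highest at month 15, and the mean of miR-1301-3p is lowest at month 6.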

How the data were processed

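Small RNA was sequenced from plasma of 8 baboons at months 0, 3, 6, 9 and 15. The authors deposited unnormalized whole-number counts, 1 row per mature microRNA under its human name, with some rows joining names. Per the labels' protocols, unique molecular identifiers were assigned at cDNA synthesis; aligner, database and whether identifiers or reads were counted: not given in the sources used here. R 4.5.0, edgeR and limma are named in the submitters' processing notes. Sequences are not shown.

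Of 2731 rows, 689 had a count in any library and 616 in the 16 libraries compared. filterByExpr (minimum count 10, total 15, grouped by month) kept 318 rows, 21 of them joined, holding 99.97% of the counts of those 16. After TMM scaling, edgeR 4.0.16 (with limma 3.58.1 under R 4.3.3) ran its quasi-likelihood test on 1 fit of all 40 libraries with month and baboon as terms, so the comparison is paired by animal. P-values were two-sided and adjusted by Benjamini-Hochberg over all rows, with a threshold of 0.05. The test gives no SE, so each SE was the absolute log2 change divided by the square root of the test's F statistic. Each 95% interval was the log2 change plus or minus a t quantile times that SE. Log2 CPM used a prior count of 2. The 4 library measures were compared with exact sign-flip tests over 256 sign patterns (smallest p 0.0078125). Pairing comes from the animal named in the labels; deviations of the 2 libraries of an animal correlated at 0.16 on average and those of different animals at -0.02. Nothing says that a library was repeated, and 0 pairs held identical values. Floors are 3 counts and cover counting error only.

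Lists, members and tests were chosen with earlier results of these data known. Named were the 20 rows with the smallest p, 10 for month 6 against the other months, rows with 1 sign in 8 of 8 animals at a mean of 10 CPM or more, the 10 most abundant, up to 3 per list, miR-451a, miR-23a-3p, miR-122-5p, miR-24-3p and rows called by another tool (DESeq2 1.42.0). Further list members are given as examples beside their list. Alternatives were other scalings, filters, tools, sample sets and covariates.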

Additional observations from a re-analysis of the deposited data

Results flagged for a closer look

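In 45 groups of 8 values, 5 values lay far from the other 7 by Dixon's criterion for the gap of an extreme value over the range. The share of about 5% that chance sets apart holds for independent groups. Groups of differences here were made from the month 6 and month 0 groups, and the rows were chosen by p or by sign. That share therefore cannot be set beside this count. Of the 5, 3 belong to baboon PA8912. Its month 6 library had a log2 CPM of 10.64 for miR-425-3p, above the other 7 month 6 libraries. Its difference (month 6 minus month 0) was -2.26 for miR-100-5p and -2.593 for log2 CPM of miR-122-5p. The other 2 belong to PA8001, whose month 0 library had a log2 CPM of 8.688 for miR-203a-3p, which gave a difference of -6.053. The cause of these values was not tested.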

How the results depend on the processing

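Month 6 against month 0 gave 0 calls by edgeR in the fit as reported and 1 call, miR-24-3p, both with no low-count filter and with DESeq2. Month 6 against months 3, 9 and 15 gave 1 call, miR-122-5p, with no low-count filter. Without the replicate block (month alone) the first comparison gave 0 calls and 4 rows at an unadjusted p under 0.05, against 11 with animals paired. The number of rows with 1 sign in every animal was 3 (miR-210-3p, miR-4676-5p and miR-100-5p), and 5 with the size factors of DESeq2, the same 3 with miR-342-3p and miR-181a-5p. Upper-quartile factors also gave 3, of which 1 was shared (miR-100-5p, with miR-1301-3p and miR-342-3p), and library totals 3, of which 2 were shared (miR-100-5p and miR-4676-5p, with miR-342-3p). Leaving out each baboon in turn gave 3 to 8, where fewer animals have to share a sign. Without PA8912 there were 4, of which 2 were shared (miR-210-3p and miR-4676-5p, with miR-342-3p and miR-374a-5p), and miR-100-5p was not among them. Leaving out each baboon gave 0 calls throughout, and the difference in haemolysis index ran from -0.37 to 0.041 and that in log2 CPM of miR-122-5p from -0.46 to 0.0395. The sign of let-7b-5p (0.07) turned to -0.00367 with the size factors of DESeq2, -0.024 with upper-quartile factors, -0.10 with library totals, -0.00369 with DESeq2, -0.027 with months 0 and 6 alone, -0.00268 without the month 9 library of PA8001 and -0.00495 with miR-122-5p taken out. That of miR-451a (-0.02) turned to 0.18 with limma-voom, 0.034 with months 0 and 6 alone and 0.016 without the block. Leaving out each baboon gave -0.093 to 0.15 for let-7b-5p, -0.45 to 0.36 for miR-451a, -0.14 to 0.26 for miR-126-5p, -0.032 to 0.36 for miR-186-5p, -0.093 to 0.41 for miR-23a-3p/23b-3p, -0.026 to 0.34 for miR-30e-5p and -0.016 to 0.33 for miR-126-3p. The causes were not tested. Leaving out the month 6 library of PA8912, chosen after seeing the data, gave 0 calls and 6 rows at an unadjusted p under 0.05.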

Other observations

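Of 68 hairpins with both arms tested, 44 had arms on the same side of 0 at month 6 against month 0. Since 200 of all 318 rows lay above 0, unrelated rows would often share a side too. Whether 44 exceeds that share was not tested. Both arms of miR-223 had log2 changes of 0.49 (3p) and 0.47 (5p), and both arms of miR-142 of 0.31 (3p) and 0.26 (5p). The 2 arms of miR-374a lay apart, at -0.72 (5p) and 0.74 (3p). So did those of miR-181a, at -0.28 (5p) and 0.56 (3p), and of miR-127, at -1.38 (5p) and 0.38 (3p). Without the PA8912 month 6 library miR-223-3p had 0.12, miR-142-3p 0.11, miR-374a-3p 0.43 and miR-127-3p 0.19.

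The month 6 library of PA8912 correlated, in its deviation from month means, at -0.36 with the same animal's month 0 library, 0.14 with its month 3, 0.41 with its month 9 and 0.57 with its month 15 library. Its highest correlation with any of the other 39 libraries, 0.63, was with the month 3 library of PA8915. Whether this library is labelled correctly cannot be settled from the files.

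Among rows left out by the filter, 3 were counted in at least 4 month 6 libraries and in 0 of the month 0 libraries. These were miR-193b-3p (34 counts in 5 libraries), miR-26b-3p (128 counts in 4) and miR-29b-2-5p (28 counts in 4). No row had the opposite pattern. Of the 616 rows with a count in the 16 libraries, 111 were counted at month 6 only and 44 at month 0 only. The month 6 libraries were deeper in 5 of 8 animals. That of PA8912 had 5824111 counts and 492 rows with a count, against 286 to 388 rows in the other month 6 libraries. How many of the 111 rows came from that library alone was not tested.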
